A study of Mus musculus with 8 samples.

Results

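Olfr1033, AC153864.1, Gm16702, Ide and Thg1l are 5 of the 28239 gene symbols in the count table of this study, and their annotated roles are unlike each other. They were selected by symbol from a ranking of these same libraries, as genes that separated the groups, so the values that separate the groups chose them and are given here as a description without a test. No threshold was used, and there are therefore no genes just inside or just outside one. All 5 passed the filter on low counts (at least 2 CPM, reads per 1000000 reads of the library, in at least 4 libraries), as did 12700 genes in all. The working name given to these genes was near all-or-none. The counts go against it, because no member was at 0 in any of the 8 libraries and Ide differed by only 1.58-fold between the group means, so the genes are called here by their symbols.

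The study asked how the lipoxygenase Alox15 bears on the differentiation of regulatory T cells (Tregs) and compared transcripts in Tregs from WT and Alox15-/- mice. Naive CD4+ T cells were taken from spleens by immunomagnetic negative selection and cultured for 2 days with 1 CD3/CD28 activation bead per cell, 100 U/ml of IL-2 and 5 ng/ml of TGF-β. There were 4 libraries per group, each from a mouse of its own. Transcripts were counted by MACE-seq, in which each transcript is read from a tag near its 3′ end. The WT mice were C57/Black6 from Charles River and the Alox15-/- mice came from The Jackson Laboratory, both with the C57BL/6 background in the labels, so that supplier and genotype cannot be told apart. The mice were 10 to 12 weeks old, female and male, and the labels do not give the sex behind each library. The libraries held between 3723151 and 9538962 counts. Foxp3, the defining transcription factor of Tregs, was between 71.7 and 114 CPM in the libraries labelled Alox15-/- and between 93.4 and 195 CPM in WT, and Cd4 was between 209.8 and 297 CPM in the libraries labelled Alox15-/- and between 328 and 352 CPM in WT, without overlap (log2 fold change -0.32 ± 0.11, adjusted p = 0.357, edgeR). The targeted gene went against its label, with 255 to 454 Alox15 reads in each library labelled Alox15-/- and 12 to 77 in each WT library. Which part of Alox15 is deleted is not given in the sources used here, and a 3′ tag outside the deleted part checks nothing, so each direction below is that of the libraries as labelled.

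The members have unlike roles. Ide encodes insulin-degrading enzyme, a zinc metallopeptidase of the M16 family that cleaves insulin, amyloid β and other short peptides inside a closed chamber. Thg1l encodes the tRNA-His guanylyltransferase, which adds a guanosine to the 5′ end of histidine tRNA, the mark by which histidyl-tRNA synthetase recognizes that tRNA. Olfr1033 belongs to the olfactory receptors, a large family of G protein-coupled receptors known for odorant detection in the sensory neurons of the nose, where a neuron usually expresses a single receptor gene. Gm16702 is annotated as a long intergenic noncoding RNA, and AC153864.1 carries only the name of a sequenced genomic clone.

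In GENCODE release M21 on GRCm38, Olfr1033 (ENSMUSG00000045392.8) is a protein-coding gene on the plus strand at chr2:86020633-86045171. Gm16702 (ENSMUSG00000097796.1) lies on the minus strand at chr17:8379045-8389468 with a single transcript. Ide (ENSMUSG00000056999.15) takes up chr19:37268743-37337852 and Thg1l (ENSMUSG00000011254.16) chr11:45946843-45955494, both on the minus strand and both protein-coding. AC153864.1 matched no entry of that annotation, so its position and neighbours were not used here. The members with a position are thus on 4 different chromosomes. Thg1l shares chromosome 11 with Alox15, 24.4 Mb away.

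RefSeq (GRCm38.p6) gave a promoter for 3 of the 5 members. Those of Gm16702 and Thg1l are printed because both transcripts were higher in the libraries labelled Alox15-/-. Each covers 250 bases before and 50 after the transcript start, 5′ to 3′ on the gene's own minus strand, with matches to 5 motifs in capitals. The motifs, searched on both strands, were TATAAA (in 13.6% of all 32851 promoters in the table), CCAAT (37.4%), GGGCGG (35.7%), the STAT motif TTCNNNGAA (8.30%) and the interferon-stimulated response element (3.44%).
Gm16702, chr17:8389419-8389718: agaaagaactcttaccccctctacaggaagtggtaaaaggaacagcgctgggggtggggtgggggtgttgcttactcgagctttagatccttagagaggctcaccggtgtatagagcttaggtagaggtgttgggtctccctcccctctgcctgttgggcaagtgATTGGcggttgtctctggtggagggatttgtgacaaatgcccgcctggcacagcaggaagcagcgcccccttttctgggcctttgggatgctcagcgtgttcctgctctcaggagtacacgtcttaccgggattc
Thg1l, chr11:45955454-45955753: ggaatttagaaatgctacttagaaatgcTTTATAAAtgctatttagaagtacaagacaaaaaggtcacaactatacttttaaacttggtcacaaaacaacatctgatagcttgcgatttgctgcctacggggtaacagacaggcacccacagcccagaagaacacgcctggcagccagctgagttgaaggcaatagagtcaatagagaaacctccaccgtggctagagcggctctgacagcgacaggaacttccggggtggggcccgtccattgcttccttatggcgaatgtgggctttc
In the Gm16702 window the only match was a CCAAT on the opposite strand that begins 85 bases before the start. In the printed Thg1l window the only matches were 2 overlapping copies of TATAAA, 1 on each strand, the outer of which begins 222 bases before the start. RefSeq has a second start for Thg1l, whose window (chr11:45955139-45955438) is not printed because it lies downstream of the first start. That window held 2 matches to CCAAT, 1 to GGGCGG and 1 to TTCNNNGAA, with 59% G or C and 21 CG dinucleotides, so CCAAT was found for both genes. The window of Ide, whose start lies 3308 bases from the nearest GENCODE start of that gene, held 1 CCAAT and is not printed. The printed windows were 56% and 47.3% G or C, against a median of 52.7% over all promoters, and each held 9 CG dinucleotides against a median of 7. A match describes the letters only, and a motif without a match says nothing of the factor.

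Olfr1033 was the member that differed most. In the libraries labelled Alox15-/- it was at 1.45, 2.44, 3.21 and 3.45 CPM in replicates 1 to 4, and in WT at 17.9, 17.8, 16.5 and 13.2 CPM. These levels rest on 6 to 24 reads per library in the first group and on 63 to 164 in the second. The groups did not overlap, and the lowest WT library was 3.83-fold above the highest library labelled Alox15-/-. The means were 2.64 ± 0.904 and 16.4 ± 2.17 CPM (SD, n = 4 each), which gives a log2 fold change of -2.57 ± 0.24 (SE). Within the libraries labelled Alox15-/- the levels spread over 2.38-fold, the widest spread of any member in either group and the one with the fewest reads behind it. A gap as wide or wider was found in 19 of the 12700 tested genes, and all but Olfr1033 of these were higher in the libraries labelled Alox15-/-.

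AC153864.1 went the other way. The libraries labelled Alox15-/- held 27.5, 29.3, 30.3 and 28.8 CPM in replicates 1 to 4, and the WT libraries 6.11, 6.89, 6.35 and 10.1 CPM. WT replicate 4 stood above the other WT libraries but still 2.73-fold below the lowest library labelled Alox15-/-. Without it that gap was 4.00-fold. The group means were 29.0 ± 1.14 and 7.36 ± 1.84 CPM (SD, n = 4 each) and the log2 fold change was 2.00 ± 0.17 (SE). The libraries labelled Alox15-/- agreed within 1.10-fold for this transcript, the tightest group of any member.

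**Figure D1:**
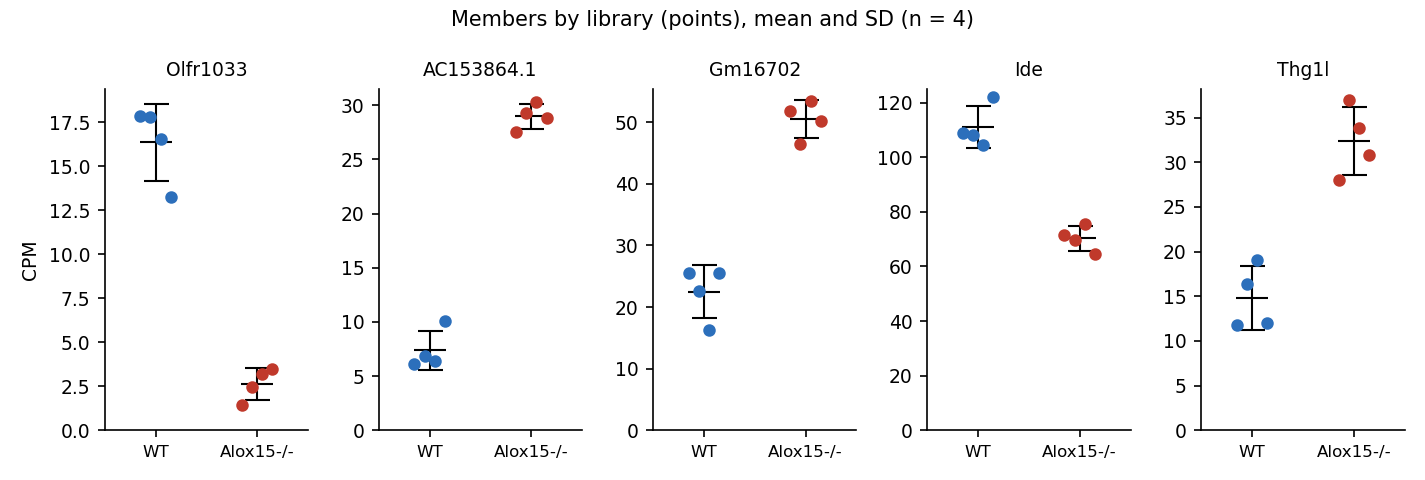
CPM (library sizes scaled by TMM; linear axes from 0, a scale for each gene) of the 5 members in every WT (blue) and Alox15-/- (red) library, with the mean and SD of each group (n = 4). The groups overlap for none of the 5 genes and no point lies at 0. Olfr1033 and Ide are lower, and AC153864.1, Gm16702 and Thg1l higher, in the libraries labelled Alox15-/-.

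Gm16702 was at 51.9, 46.4, 53.5 and 50.2 CPM in the libraries labelled Alox15-/- and at 25.6, 22.6, 16.3 and 25.6 CPM in WT. WT replicate 3, the most deeply sequenced library, was the lowest, and the groups did not overlap. The means of 50.5 ± 3.05 and 22.5 ± 4.36 CPM (SD, n = 4 each) correspond to a log2 fold change of 1.18 ± 0.14 (SE). This noncoding transcript was thus a little over 2-fold more abundant in the libraries labelled Alox15-/- and held 122 reads or more in every WT library.

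Thg1l, the tRNA-His guanylyltransferase, was at 28.0, 36.9, 33.9 and 30.8 CPM in the libraries labelled Alox15-/- and at 11.8, 16.3, 19.1 and 11.96 CPM in WT. Its highest WT library was replicate 3, and the lowest library labelled Alox15-/- was 1.47-fold above it. The means were 32.4 ± 3.85 and 14.8 ± 3.55 CPM (SD, n = 4 each), a log2 fold change of 1.11 ± 0.17 (SE).

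Ide, the insulin-degrading enzyme, had the smallest difference and the most reads, 257 to 1036 per library. It was at 71.7, 69.8, 75.5 and 64.5 CPM in the libraries labelled Alox15-/- and at 109, 108, 104 and 122 CPM in WT. The lowest WT library was 1.38-fold above the highest library labelled Alox15-/-, the narrowest gap among the members. The means were 70.3 ± 4.58 and 111 ± 7.70 CPM (SD, n = 4 each) and the log2 fold change was -0.66 ± 0.10 (SE).

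Over the whole table, edgeR's quasi-likelihood test at an adjusted p under 0.05 called 1.24% of the tested genes in either direction, 1.05% higher and 0.197% lower. These shares rest on 158 calls, of which there were 95, 86 and 93 without Alox15-/- replicates 1, 2 and 3 and 105 without WT replicate 2. The groups did not overlap for 5.25% of the tested genes, and they did not for any of the 5 members, which were selected on this contrast, so that nothing can be read from their share. The gaps of AC153864.1, Gm16702, Thg1l and Ide were reached or passed by 33, 61, 80 and 99 tested genes, themselves included. Of these, 31, 56, 70 and 14 differed in the same direction as the member. Alox15 itself had a ratio of 7.06 and a log2 fold change of 3.65 ± 0.30 (SE).

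The spread within groups is given beside edgeR's trend as a description only. The members were selected for separating the groups, a choice that favours a low spread. The value of each gene is also moderated by edgeR towards the trend, so nearness to the trend says nothing particular of the members. The biological coefficient of variation from edgeR was 15.6% for Olfr1033 against 18.0% for the trend at its abundance, 13.3% against 16.02% for AC153864.1, 13.6% against 13.9% for Gm16702, 10.5% against 12.9% for Ide and 15.5% against 15.3% for Thg1l. 4 of these values lay below the trend and that of Thg1l just above it. After the group means were taken out, the members' log2 levels did not move as a block. Over the 10 pairs of members the correlation of these deviations across the 8 libraries ran from -0.86 to 0.71 with a median of -0.18, and 4 pairs were above 0, given here as a description of 8 points.

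The transcripts most like each member over the 8 libraries were sought by Pearson's r of log2(CPM + 1) among all tested genes. The points share the split into groups, so a high r mostly follows that split and is a description. It says nothing of how large a difference is. For Olfr1033 these were Galnt10 (r = 0.98), an enzyme that starts O-glycan chains, Dis3 (0.97), a ribonuclease of the RNA exosome, and 9030624J02Rik (0.96). Galnt10 was called, at a log2 fold change of -0.86. Dis3 and 9030624J02Rik were not, at -0.24 and -0.25 (adjusted p = 0.560 and 0.582, edgeR). For AC153864.1 they were Gm14094 (0.99), Gm8420 (0.99) and Gm8797 (0.98). Gm14094 and Gm8420 came far closer to all-or-none than any member, with 68.7 ± 3.43 and 211 ± 4.56 CPM in the libraries labelled Alox15-/- against 2.59 ± 1.47 and 9.12 ± 4.39 CPM in WT (SD, n = 4 each). For Gm16702 they were Atox1 (0.97), a copper chaperone, Gm8797 (0.97) and Zswim7 (0.96). For Ide they were Stradb (0.97), Ms4a1 (0.97), the B cell surface protein CD20, and Dcaf7 (0.97). Ms4a1 was called, from low levels of 0.549 ± 0.307 CPM in the libraries labelled Alox15-/- and 3.26 ± 0.789 CPM in WT (SD, n = 4 each). Stradb and Dcaf7 were not called, at log2 fold changes of -0.69 and -0.20 (adjusted p = 0.092 and 0.623, edgeR). For Thg1l they were Rad9b (0.98), Gmfg (0.97) and Ptprd (0.97), a receptor tyrosine phosphatase. Rad9b was not called, at a log2 fold change of 0.61 (adjusted p = 0.513, edgeR). Of all these transcripts Galnt10, Atox1, Zswim7 and Dcaf7 are on chromosome 11, as is Alox15. The others with a position are on other chromosomes.

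The neighbours of the members were tested to see whether the difference extended along the chromosome, a measure that the choice of members did not use. Within 500 kb of Gm16702, Ide and Thg1l there were 28 other tested genes, and none of them was called with edgeR's quasi-likelihood test and Benjamini-Hochberg adjustment over all 12700 genes. DESeq2 and limma-voom called none of them either. At an unadjusted p under 0.05 there were 3, and the background at that level was 7.84% of all tested genes. Of the 28, 13 had a log2 fold change above 0 and 15 below, with a median of -0.01, the same as over all tested genes.

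Thg1l was flanked by Lsm11, a component of the U7 particle that trims histone mRNA, only 1.91 kb away on the same strand. Lsm11 was at 21.9 ± 1.63 CPM in the libraries labelled Alox15-/- and 22.4 ± 2.62 CPM in WT (SD, n = 4 each), a log2 fold change of -0.03 ± 0.14 with an adjusted p of 0.974 by edgeR. On its other side the nearest tested gene was Gm12166, 95.9 kb away, at -0.005 ± 0.16 on the log2 scale with an adjusted p of 0.998 by edgeR. The 13 tested neighbours of Thg1l, which include the checkpoint receptor gene Havcr2, ran from -0.08 to 0.65.

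Around Gm16702 the 8 tested neighbours ran from -0.65 to 0.47. The nearest was Sft2d1, a vesicle transport gene 51.6 kb away on the other strand. It was at 26.0 ± 3.89 CPM in the libraries labelled Alox15-/- and 18.8 ± 0.320 CPM in WT (SD, n = 4 each), without overlap, and its log2 fold change of 0.47 ± 0.14 did not pass the test (adjusted p = 0.221, edgeR). Rnaset2a, a ribonuclease gene on the same side, was at 0.21 ± 0.10 (adjusted p = 0.635, edgeR). In the other direction no gene was tested within 500 kb, and the nearest, Gm17748 at 1032 kb, was at -0.09 ± 0.31 (adjusted p = 0.971, edgeR). Of the genes that overlap Gm16702, T2 lies on the opposite strand and held 0 to 2 reads per library, while Gm16702 held 122 to 349.

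The nearest tested genes beside Ide were Kif11, a mitotic motor protein gene 38.6 kb away, and Cpeb3, 60.1 kb away on the other side. Kif11 was at 72.5 ± 10.9 CPM in the libraries labelled Alox15-/- and 78.1 ± 17.0 CPM in WT (SD, n = 4 each) with a log2 fold change of -0.11 ± 0.15 (adjusted p = 0.909, edgeR), and Cpeb3 was at -0.08 ± 0.27 (adjusted p = 0.971, edgeR). Rpl10-ps6, a ribosomal protein pseudogene inside Ide on the same strand, was at 417 ± 35.6 and 406 ± 36.6 CPM (SD, n = 4 each) and did not pass the test (0.04 ± 0.10, adjusted p = 0.956, edgeR). Among the 7 tested neighbours, Fgfbp3 had the lowest value, -0.70 ± 0.34, from 4 to 34 reads per library, and Btaf1 was at -0.29 ± 0.11, and neither passed (adjusted p = 0.664 and 0.481, edgeR).

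Olfr1033 sits in a cluster of olfactory receptor genes in which little else was read. Of 91 other annotated genes within 500 kb, 10 were in the table and none passed the filter, with between 1 and 21 reads each over all 8 libraries together. The nearest tested genes, Tnks1bp1 at 948 kb and Gm13731 at 1289 kb, were at 0.09 ± 0.24 and -0.15 ± 0.23 on the log2 scale (adjusted p = 0.957 and 0.915, edgeR).

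**Figure D2:**
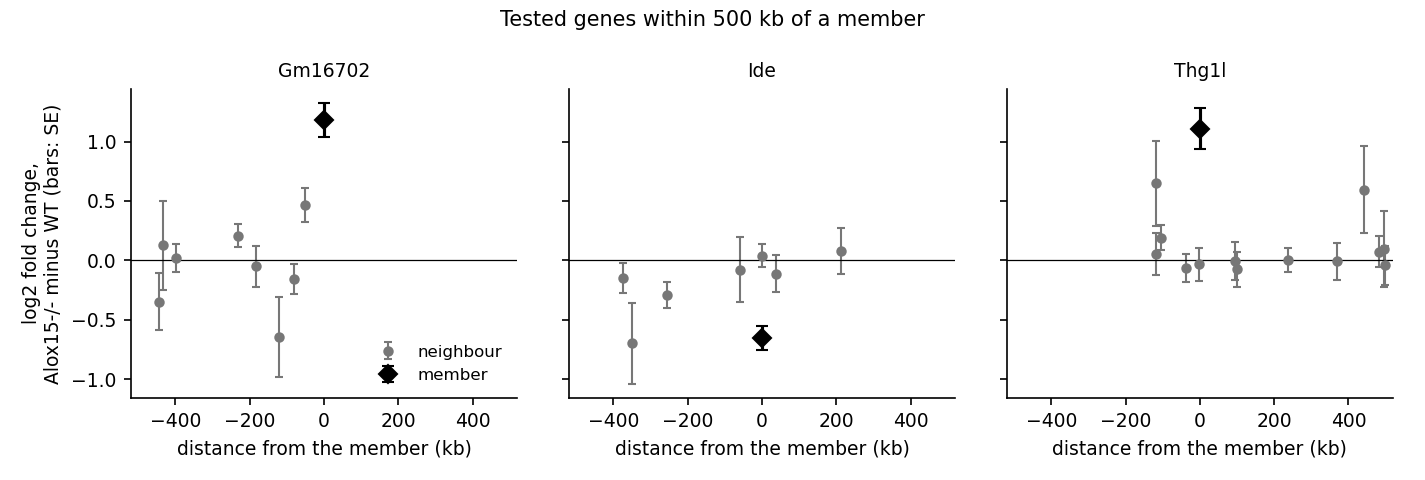
Log2 fold change (Alox15-/- minus WT, bars SE) of each tested gene within 500 kb of Gm16702, Ide and Thg1l (grey) against its distance from the member in kb (negative is towards lower coordinates, 0 is overlapping), with the member as a black diamond. The 28 neighbours lie between -0.70 and 0.65 and none passed the test, including Lsm11 at 1.91 kb from Thg1l.

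Shared sequence was checked for the last 500 bases of every transcript of the 4 annotated members, where 3′ tags fall. No other gene matched Ide or Thg1l at 90% identity over 100 bases. Gm16702 had 2 such genes, Atp13a3 and Chic2, and their log2 fold changes were 0.03 and 0.07 (adjusted p = 0.971 and 0.914, edgeR). Olfr1033 had 9, of which 6 were in the table and 4 were tested. These 4, namely 4930579G24Rik, Ash2l, Sirt5 and Thada, lay between -0.10 and 0.05 on the log2 scale and none was called (smallest adjusted p 0.849, edgeR). The longest match, Gm26809 with 158 bases at 96.2% identity on the opposite strand, held 19 reads in the libraries labelled Alox15-/- and 30 in WT. Reads that fall in such stretches could be counted for either gene, so the level of Olfr1033 is uncertain to that extent.

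The families of the members were examined with the members left out. In every list below for which edgeR gave no call, DESeq2 and limma-voom gave none either. Among the M16 metallopeptidases, the family of Ide that also holds the mitochondrial processing peptidases, all 6 other tested genes had log2 fold changes below 0 (Uqcrc1 turned to 0.0124 under upper quartile scaling and to between 0.0242 and 0.0503 without any 1 of 3 libraries), with a median of -0.18 against -0.01 over all genes, and none was called (1 at an unadjusted p under 0.05). They ran from -0.30 ± 0.10 for Pitrm1, a mitochondrial peptidase (adjusted p = 0.325, edgeR), to -0.02 ± 0.11 for Uqcrc1, a core protein of respiratory complex III (adjusted p = 0.988, edgeR). Pitrm1 was at 76.7 ± 4.90 CPM in the libraries labelled Alox15-/- and 94.3 ± 6.90 CPM in WT (SD, n = 4 each). Of 20 other tested peptidases that cleave peptides, 1 was called higher and none lower (3 at an unadjusted p under 0.05), 15 had values below 0, and the median was -0.11. The gene called was Dpp4, the dipeptidylpeptidase CD26 of the T cell surface, at 16.03 ± 1.80 against 8.46 ± 1.43 CPM (SD, n = 4 each), a log2 fold change of 0.89 ± 0.18 (adjusted p = 0.0159, edgeR). That call was lost without any 1 of 5 libraries (adjusted p between 0.050 and 0.0775). Receptors and substrates of insulin and IGF, whose ligands Ide can degrade, gave no call among 7 tested genes (1 at an unadjusted p under 0.05) and ran from -0.19 for Pik3r1 to 0.32 for Igf2r.

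Around Thg1l, 30 other tested genes for the ends of tRNA and for histidyl-tRNA gave no call (1 at an unadjusted p under 0.05). Their log2 fold changes had a median of -0.04 and ran from -0.32 for Rpp14, a subunit of RNase P, to 0.34 for Tsen34, a subunit of the tRNA splicing endonuclease. Of 63 tested tRNA modification genes none was called (3 at an unadjusted p under 0.05), the median was -0.05, and the range was from -0.52 for Dus4l to 0.33 for Nsun6.

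The table listed 262 other olfactory receptor genes, and 6 of them were tested. All 6 had values above 0 (Olfr275 turned to -0.00402 when no filter was used, -0.0320 without Alox15-/- replicate 3 and -0.0285 without WT replicate 1), the opposite sign to Olfr1033, from 0.02 ± 0.12 for Olfr275 to 0.51 ± 0.29 for Olfr620, and none was called (none at an unadjusted p under 0.05 either). Summed over all 262 genes, the level was 255 ± 31.8 CPM in the libraries labelled Alox15-/- and 232 ± 7.81 CPM in WT (SD, n = 4 each). Olfr1033 made up 0.662% to 1.30% of all olfactory receptor counts in the libraries labelled Alox15-/- and 5.38% to 7.03% in WT. Of 3 tested genes of olfactory signalling none was called (none at an unadjusted p under 0.05), with 1 above 0 and 2 below. Gnal, the olfactory G protein α subunit, was highest, at 58.0 ± 5.79 and 55.3 ± 7.11 CPM (SD, n = 4 each) and a log2 fold change of 0.07 ± 0.12. Adcy3 was lowest, at -0.24 ± 0.16 (adjusted p = 0.782, edgeR).

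For the transcripts known only by a code, the background was taken from the names alone. Of 187 other tested clone-named genes none was called, 10 were at an unadjusted p under 0.05, and the values ran from -0.90 for AC153548.4 to 0.70 for AC158596.1. Of 1409 other tested predicted genes of the kind of Gm16702, 15 were called, 10 higher and 5 lower, which is 1.06%, against 1.24% of all genes in the same fit. The 10 were Gm14094, Gm8420, Gm5292, Gm4070, Gm12216, Gm11290, Gm8369, Gm43302, Gm8885 and Gm8797, from 4.77 down to 0.59 on the log2 scale. The 5 lower ones were Gm27177, Gm16867, Gm21887, Gm10020 and Gm4294, from -2.33 to -0.47. Without 1 library, 7 of the 15 lost the call at least once, namely Gm11290, Gm12216, Gm43302, Gm21887, Gm10020, Gm27177 and Gm4294. Gm16867, under 2 CPM in every library labelled Alox15-/-, failed the filter and was not tested when a WT library was left out.

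**Figure D3:**
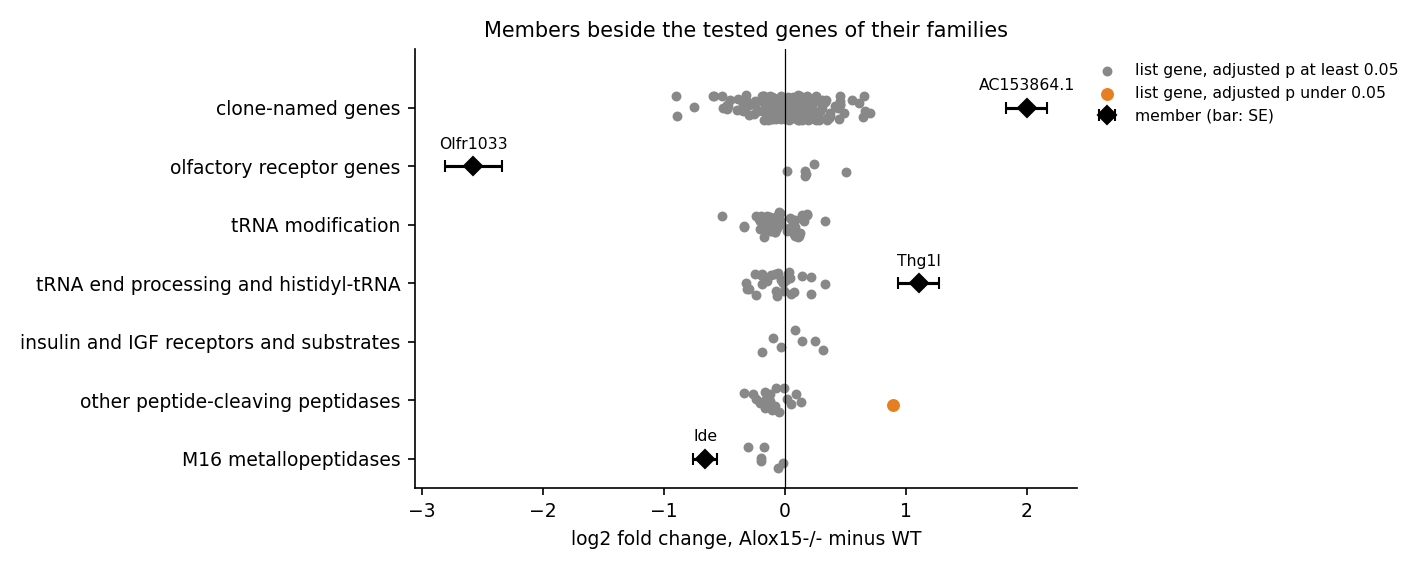
Log2 fold change (Alox15-/- minus WT) of the tested genes of 7 families or name classes, each point 1 gene, jittered vertically, with 4 of the members as black diamonds (bars SE). Dpp4 at 0.89 is the only list gene past the test (orange). The members were selected on these values, and Gm16702 at 1.18 is not shown because its class of 1409 predicted genes, from -2.33 to 4.77, is not drawn.

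Markers of other cells moved with the groups, and their values are set here beside those of the members. In bulk RNA, fewer cells of a type and less RNA per cell cannot be told apart. Of the erythroid markers 5 of 6 tested genes were called higher in the libraries labelled Alox15-/-, and the summed level of the 8 markers was 920 to 3522 CPM there against 72.3 to 140 CPM in WT. For mast cells and basophils 7 of 8 were called higher, with sums of 141 to 360 against 57.9 to 82.9 CPM. For myeloid cells it was 5 of 6, with 50.1 to 346 against 12.6 to 19.7 CPM, and for NK and gamma-delta T cells 5 of 7, with 115 to 214 against 57.0 to 73.8 CPM. The summed B cell markers were lower, at 10.04 to 12.3 against 12.4 to 31.6 CPM, with 1 of 3 tested genes called lower. No marker of these lists was at 0 in all libraries. Each of these 5 sums had an adjusted p of 0.04 in a two-sided exact permutation test over 7 lists, whose smallest possible unadjusted p was 0.0286. The lists were chosen with earlier results of these data known, so these p-values are a description and no independent test. The T cell and Treg markers gave no call among 10 tested genes (3 at an unadjusted p under 0.05), and their sums of 2811 to 2964 and 2858 to 3101 CPM did not pass the exact permutation test (adjusted p = 0.3). Those of olfactory sensory neurons were at 67.9 to 81.7 and 65.8 to 85.6 CPM (adjusted p = 0.914, exact permutation test), and Omp, the defining marker of those neurons, was not among the markers found in the table.

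The libraries labelled Alox15-/- also differed among themselves in these sums. The erythroid sum was 1117, 3351, 3522 and 920 CPM in replicates 1 to 4 and the myeloid sum 83.8, 346, 211 and 50.1 CPM, so that replicates 2 and 3 were high and replicates 1 and 4 low, over ranges of 3.83-fold and 6.91-fold. The mast cell and basophil sum ranged over 2.55-fold, the NK and gamma-delta T cell sum over 1.87-fold and the B cell sum over 1.22-fold. Over the same 4 libraries Olfr1033 ranged over 2.38-fold, Thg1l over 1.32-fold, Ide over 1.17-fold, Gm16702 over 1.15-fold and AC153864.1 over 1.10-fold. Thg1l was highest in replicates 2 and 3 as well, at 36.9 and 33.9 CPM, and so by a small margin was AC153864.1, at 29.3 and 30.3 CPM against 28.8 CPM in replicate 4. Gm16702 was lowest in replicate 2, Ide was highest in replicate 3 and lowest in replicate 4, and Olfr1033 was highest in replicate 4 and lowest in replicate 1. The part of these cells in the levels of the members was not tested.

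**Figure D4:**
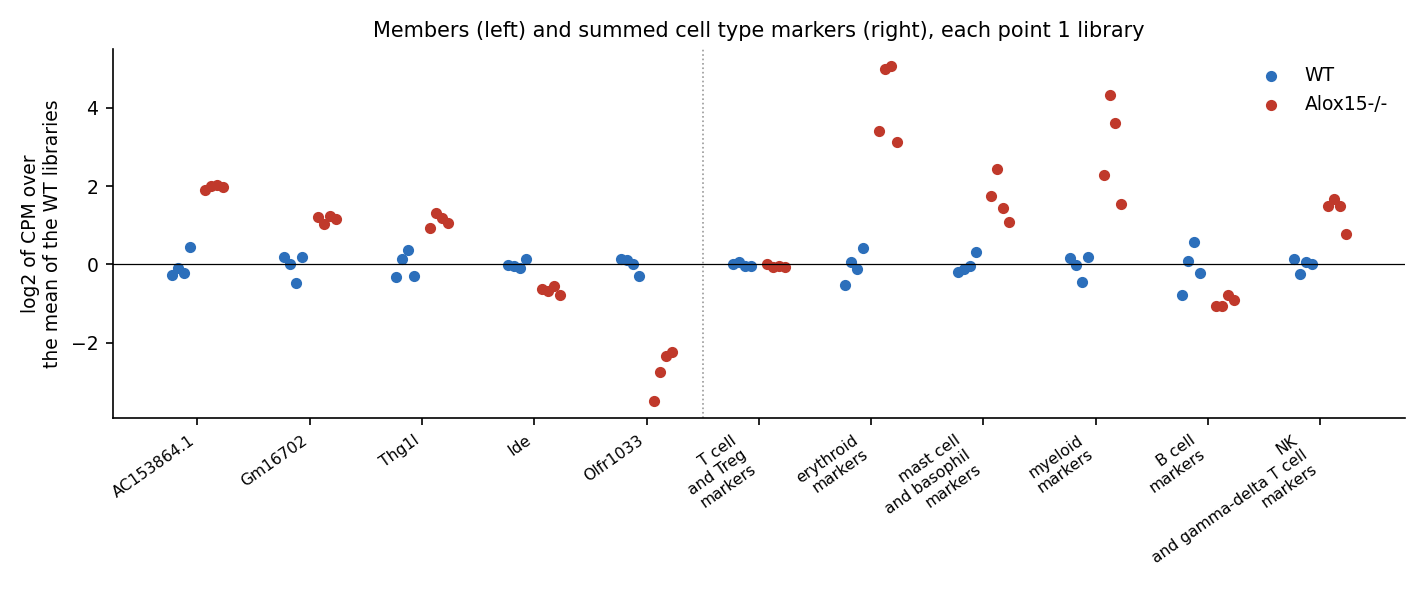
Log2 of the CPM of each member (left) and of the summed markers of each cell type (right) over the mean of the WT libraries, each point 1 library of WT (blue) or Alox15-/- (red). The erythroid and myeloid sums spread widely among the libraries labelled Alox15-/- (920 to 3522 and 50.1 to 346 CPM). Olfr1033 lies between 1.45 and 3.45 CPM there, on 6 to 24 reads per library and in another order of the replicates. AC153864.1 lies between 27.5 and 30.3 CPM.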

How the data were processed

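The authors deposited a table of raw read counts per gene symbol for 8 MACE-seq libraries, 4 from Tregs of WT mice and 4 of Alox15-/- mice, from reads that the labels call cleaned and trimmed. The submitters' processing notes name Bowtie, edgeR and GRCm38 without versions, and how the counts were made beyond that is not given in the sources used here. The labels name a small RNA kit where the study's methods name a MACE-Seq kit.

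Counts were scaled by TMM in edgeR 4.0.16 (R 4.3.3). A gene was kept if 4 or more libraries reached 2 CPM (12700 genes), and the quasi-likelihood test of edgeR was run with the group as the only term, with Benjamini-Hochberg adjustment and a threshold of 0.05. The test was first tried on simulated counts. The common biological coefficient of variation was 14.5%, and every pair of libraries of a group differed by more than sampling noise. Alternatives used DESeq2 1.42.0 and limma 3.58.1, other scalings and filters, the replicate number as a block, and each library left out. Marker sums, as log2(CPM + 1), were compared by two-sided exact permutation in scipy 1.17.1. Positions came from GENCODE M21, in which 97.0% of tested symbols had 1 position. Sequence was compared with blastn 2.17.0.

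The members and the gene lists were chosen with earlier results of these data known. Genes named beside the members are the targeted gene, the nearest tested gene on each side, genes that overlap a member or match its 3′ end, the 3 most alike transcripts, and from each family those past the threshold or, if none, the highest and lowest. Rnaset2a, Btaf1, Fgfbp3 and Havcr2 were named after their values were seen.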

Additional observations from a re-analysis of the deposited data

Results flagged for a closer look

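In 7 of 136 groups of 4 libraries 1 library stood apart from the other three by Dixon's test at the 95% level, as chance does in about 1 of 20 groups, and none of these groups was one of a member. Foxp3 was at 195 CPM in WT replicate 3 and between 93.4 and 109 CPM in the other WT libraries. Gm17748, the nearest tested gene on one side of Gm16702, was at 1.47 CPM in WT replicate 4 and between 2.88 and 3.14 CPM in the others. Gm12166, a neighbour of Thg1l, was at 10.9 CPM in WT replicate 2 and between 12.5 and 12.7 CPM in the others. Among the called predicted genes, Gm8369 was at 78.8 CPM in Alox15-/- replicate 4 (52.0 to 55.5 in the others), Gm43302 at 32.9 CPM in WT replicate 4 (44.8 to 45.8), Gm16867 at 6.96 CPM in WT replicate 3 (4.97 to 5.04) and Gm12216 at 5.17 CPM in WT replicate 1 (2.31 to 2.72).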

How the results depend on the processing

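All 5 members kept their direction and moved by less than 1 SD between replicates under each of 17 alternatives, with log2 fold changes from -2.75 to -2.39 for Olfr1033, 1.93 to 2.17 for AC153864.1, 1.05 to 1.25 for Gm16702, -0.69 to -0.61 for Ide and 1.01 to 1.27 for Thg1l. No neighbour was called under any of 19 alternatives, distances of 250 kb and 1 Mb included. The number of genes called was 158 and rose to 388 without a filter. With each library left out, fewer samples were compared and the number ran from 86 to 172, on both sides of 158. The call of Dpp4, the only one among the peptidase and tRNA genes, made that count 0 or 1 with each library left out.

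With limma-voom 3 myeloid markers were called in place of 5. The replicate numbers did not pair the libraries (correlations of same-numbered libraries from -0.178 to 0.165). With the replicate block 146 genes were called, the members were at -2.57, 2.00, 1.19, -0.66 and 1.14 in the order above, and Zswim7, Gm4294 and Gm10020 lost their call.

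Gm16867 and Ms4a1 without a WT library, and AC158596.1 without any 1 of 4 libraries, failed the filter and gave no value. Of 906 values of 54 genes named beside the members, 831 kept direction and side of the threshold, 51 lost a call and 24 changed sign, none of them called. The last were Gm12166 (0.0242 under upper quartile scaling, 0.000376 with DESeq2, 0.00262 with limma-voom, -0.0553 to 0.0405 with a library left out), Uqcrc1 (0.0124 under upper quartile scaling, -0.0998 to 0.0503 with a library left out), Olfr275 (-0.00402 without a filter, -0.0320 to 0.0925 with a library left out) and, with a library left out, Gm17748 (-0.25 to 0.00604), Lsm11 (-0.11 to 0.0156), Rpl10-ps6 (-0.0144 to 0.0816), Tnks1bp1 (-0.0247 to 0.27), Cpeb3 (-0.23 to 0.10) and Kif11 (-0.24 to 0.0143). The cause was not tested. The depth limits Olfr1033 most, with 6 to 24 reads in each library labelled Alox15-/-.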
